A study of Homo sapiens with 6 samples.

Results

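The 10 genes described here encode enzymes that build, modify and trim heparan sulfate: EXT1, EXT2, EXTL2, NDST1, GLCE, HS2ST1, HS6ST1, HS3ST1, SULF1 and SULF2. They were chosen by name, for their place in the pathway, from 23459 genes in the table, and 8 of the 10 had enough reads to be tested. Counts of mRNA reads per gene were made in T47D-YA cells, a line derived from the luminal breast cancer line T47D that carries the A form of the progesterone receptor. Each of the 3 groups held 2 libraries. One group carried an empty vector, and the others overexpressed fibroblast growth factor 2 (FGF2), either as its 18 kDa or as its 22.5 kDa isoform. The labels name no promoter for the overexpressed gene, no drug treatment, and no clone or pool behind each line. They also leave unsaid whether the libraries of a group were grown separately, so each p-value reflects only the spread between these libraries, which may be technical.

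Heparan sulfate is a long sugar chain carried by proteins of the cell surface and the extracellular matrix. FGF2 binds it, and the chain acts as a co-receptor that holds FGF2 and its receptor together at the membrane. Chains are polymerised in the Golgi, then partly stripped of acetyl groups, epimerised and sulfated at set positions. FGF2 itself needs N-sulfate and 2-O-sulfate groups to bind, while 6-O-sulfate groups are needed for the complex with the receptor. The 18 kDa isoform is the exported form of FGF2, and the larger isoforms lie mainly in the nucleus. The values below are mRNA levels, and neither enzyme activity nor the chain was measured.

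The libraries held 5317687 to 6817324 counted reads. FGF2, the overexpressed gene, stood at 2.15 and 2.44 CPM (read counts scaled to library size with edgeR's TMM factors) in empty vector cells, 961 and 767 CPM in 18 kDa cells, and 1333 and 1555 CPM in 22.5 kDa cells. Both overexpressing groups thus lay above the empty vector. Of 10 luminal epithelial markers, 9 had at least 10 counts in some library, and their summed level was 16579 to 21484 CPM in empty vector cells, 19660 to 23414 CPM in 18 kDa cells and 12923 to 16078 CPM in 22.5 kDa cells. The 7 fibroblast markers summed to 54.5 to 79.6 CPM over the 6 libraries, the 5 endothelial markers to 2.60 to 5.90 CPM and the 6 leukocyte markers to 5.50 to 14.0 CPM. The endothelial gene TEK and the T cell gene CD3E had 0 counts in every library. The part of these levels in the results below was not tested.

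In the empty vector cells EXT2, which encodes a polymerase subunit, and NDST1, which encodes an N-sulfation enzyme, were the most abundant of the 10 per kilobase of exon. EXT2 stood at 42.6 ± 3.74 CPM per kilobase (SD, n = 2, as for the levels that follow) and NDST1 at 29.1 ± 3.12. HS6ST1 followed at 7.42 ± 0.175 CPM per kilobase, with no overlap between its libraries and those of its neighbours in this order. HS2ST1 (2.52 ± 0.894), GLCE (1.93 ± 0.318), EXTL2 (1.76 ± 0.389) and EXT1 (1.56 ± 0.225) came next, and each of these overlapped the next in the order. The endosulfatase genes were low, SULF2 at 0.634 ± 0.283 and SULF1 at 0.272 ± 0.262 CPM per kilobase, and their libraries overlapped. HS3ST1 had no read. EXT1 and EXT2 encode the subunits of a single polymerase, yet their mRNAs lay far apart on this per-length scale in every group, with EXT1 at 1.51 ± 0.332 and EXT2 at 51.2 ± 12.4 CPM per kilobase with 18 kDa FGF2, and 2.77 ± 0.0991 and 43.8 ± 3.16 with 22.5 kDa FGF2.

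**Figure D1:**
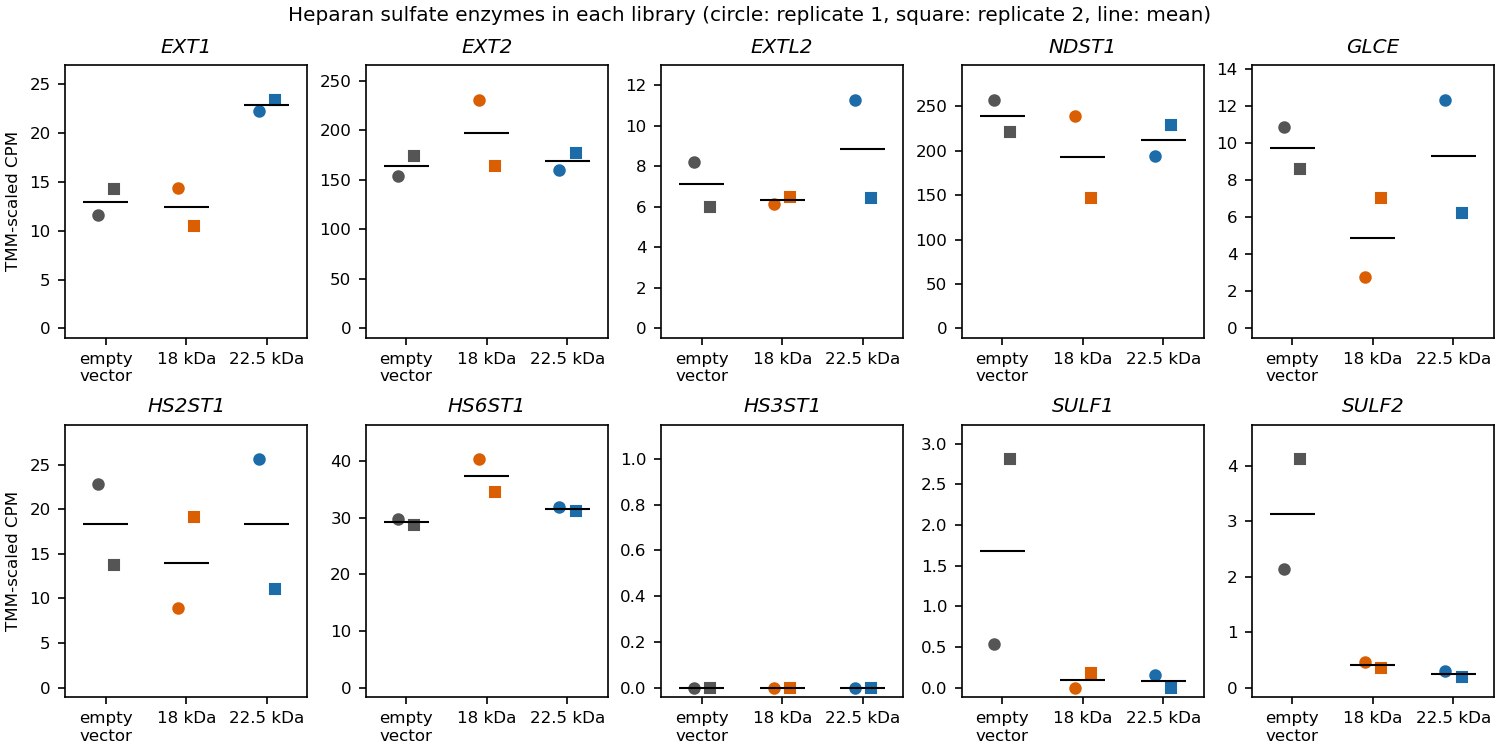
TMM-scaled CPM (vertical axes, each from 0 and on its own scale) of the 10 heparan sulfate enzyme genes in each of the 6 libraries, by group; circles are replicate 1, squares replicate 2 and lines the group mean. SULF2 lies between 2.15 and 4.13 CPM in the empty vector and at or below 0.460 CPM in the 4 FGF2 libraries, while HS3ST1 is at 0 in all 6.

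SULF2 was the tested member that passed with either isoform, but it was tested only because of its reads in the empty vector libraries: both met the minimum for testing, 1.80 CPM, and none of the 4 FGF2 libraries did. A tested gene of that kind had to be lower with FGF2, so its p-values are given as a description. SULF2 encodes an extracellular sulfatase that removes 6-O-sulfate groups from finished chains, and is known to lower FGF2 signalling in that way. The promoters of SULF2 and HS2ST1 are printed because they stand at the ends of the range of the observed-to-expected ratio of CpG sites. The range is that of the 8 members found in the RefSeq promoter table (GRCh38.p14, 250 bases before to 50 after the gene's start, on the gene's strand, 5′ to 3′). The ratio allows for base content and does not rank the members by number of sites. HS6ST1 had a ratio of 1.00 at a higher GC content than HS2ST1 (79.7% against 66%). SULF2 lies at chr20:47764379-47764678 on the minus strand and HS2ST1 at chr1:86914385-86914684 on the plus strand, and capitals mark CpG dinucleotides.
SULF2: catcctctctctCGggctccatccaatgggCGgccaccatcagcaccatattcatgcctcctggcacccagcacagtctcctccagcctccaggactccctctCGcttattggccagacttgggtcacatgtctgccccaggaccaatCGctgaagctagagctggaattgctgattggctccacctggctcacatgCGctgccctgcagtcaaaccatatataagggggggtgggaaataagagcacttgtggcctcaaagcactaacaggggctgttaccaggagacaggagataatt
HS2ST1: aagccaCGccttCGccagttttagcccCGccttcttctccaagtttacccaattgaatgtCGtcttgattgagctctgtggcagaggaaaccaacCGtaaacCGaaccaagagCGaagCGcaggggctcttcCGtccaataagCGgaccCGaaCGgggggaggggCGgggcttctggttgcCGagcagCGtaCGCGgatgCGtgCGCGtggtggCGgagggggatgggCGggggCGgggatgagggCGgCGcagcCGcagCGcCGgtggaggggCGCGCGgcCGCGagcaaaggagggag
The SULF2 window held 5 CpG sites, an observed-to-expected ratio of 0.219, and the HS2ST1 window 33 sites, a ratio of 1.05. The median ratio of 35116 promoters of the same length was 0.579, and NDST1 (0.294) was the only other member below it. The GC box GGGCGG, read on both strands, was found in 8 of 8 members and in 45.0% of all promoters. The estrogen receptor half-site AGGTCA was in 0 of 8 members and 13.8% of promoters. The AP-1 site TGANTCA was in 1 of 8, NDST1, and 7.71% of promoters. The full estrogen response element, searched without the outer base of each half-site, was in 0 of 8 and 0.0570% of promoters. These matches describe the letters of the windows only.

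Reads of SULF2 numbered 12 and 22 in empty vector cells, 3 and 2 in 18 kDa cells, and 2 and 1 in 22.5 kDa cells. Scaled, this was 2.15 and 4.13 CPM, then 0.460 and 0.351 CPM, then 0.305 and 0.200 CPM. Both empty vector libraries lay above all 4 FGF2 libraries, and the empty vector libraries themselves were far apart. With 18 kDa FGF2 the level was 7.60-fold lower by the ratio of counts (95% interval 2.96 to 24.9, counting error only), and the fitted log2 fold change was -2.87 (SE 0.66, adjusted p = 0.00516). With 22.5 kDa FGF2 it was 12.0-fold lower by counts (3.76 to 60.9), with a fitted log2 fold change of -3.49 (SE 0.73, adjusted p = 0.00186). These adjusted p-values, and those below, are from edgeR's quasi-likelihood test with Benjamini-Hochberg adjustment over all 13124 genes tested. Between the isoforms both groups were at or under 3 counts a library, so no fold is given. The direction held in each alternative fit, but the call rested on few reads. With 18 kDa FGF2 it was lost with DESeq2 (adjusted p = 0.145), without empty vector replicate 2 (0.155) and without 18 kDa replicate 2 (0.0508), over a range of 0.00179 to 0.155. With 22.5 kDa FGF2 it was lost with DESeq2 (0.0689), without empty vector replicate 2 (0.0593) and without 22.5 kDa replicate 1 (0.0585) or 2 (0.0786), over a range of 0.000316 to 0.0786. In bulk RNA, fewer cells that express SULF2 and less SULF2 mRNA per cell cannot be told apart.

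SULF1, the other extracellular endosulfatase, had fewer reads still. Its counts were 3 and 15 in empty vector cells, 0 and 1 in 18 kDa cells, and 1 and 0 in 22.5 kDa cells. The highest FGF2 library lay below the lower empty vector library, but most of the empty vector reads came from replicate 2. SULF1 reached the minimum for testing, 1.80 CPM, in 1 library and was left out of the main test. By counts it was 20.1-fold lower with 18 kDa FGF2 (95% interval 3.18 to 838) and 19.0-fold lower with 22.5 kDa FGF2 (3.0 to 792), against 1 read in each FGF2 group. Fitted with no minimum, it had adjusted p = 0.0108 and 0.0114. In the leave-one-out fits whose own minimum it met, its log2 fold change with 18 kDa FGF2 ran from -6.27 to -3.06. With 22.5 kDa FGF2 it ran from -6.23 to -3.25. With either isoform, an adjusted p under 0.05 was reached in some of these fits and lost in others. SULF1 met that minimum only through the empty vector group and so had to be lower with FGF2. Its values, like those of SULF2, are therefore given as a description.

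Across the members, 1 of the 8 tested passed an adjusted p of 0.05 with 18 kDa FGF2, where 8.88% of all tested genes did (4.79% lower). With 22.5 kDa FGF2 it was again 1 of 8, against 10.9% of all tested genes (5.88% lower). That gene was SULF2 both times, and both comparisons share the empty vector libraries. Since SULF2 was tested through the empty vector group alone, the counts are no evidence about the 10 as a group. The other 7 tested members met it in all 6 libraries. Between the isoforms 0 of 8 passed, against 1.58% of all tested genes, with 1 at an unadjusted p under 0.05 (EXT1) and 0 with DESeq2. The median log2 fold change of the 8 was -0.24, 0.03 and 0.27 for 18 kDa against empty vector, 22.5 kDa against empty vector and 22.5 kDa against 18 kDa, beside -0.05, 0.01 and 0.02 for all tested genes. Groups did not overlap in 3 of 8 members in each comparison, where 52%, 52.9% and 38.1% of all tested genes did not overlap. SULF2 was 1 of the 3 each time. Against the empty vector its place was fixed by the minimum for testing, and between the isoforms it rested on 1 to 3 counts a library. These shares too are no evidence about the 10 as a group.

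**Figure D2:**
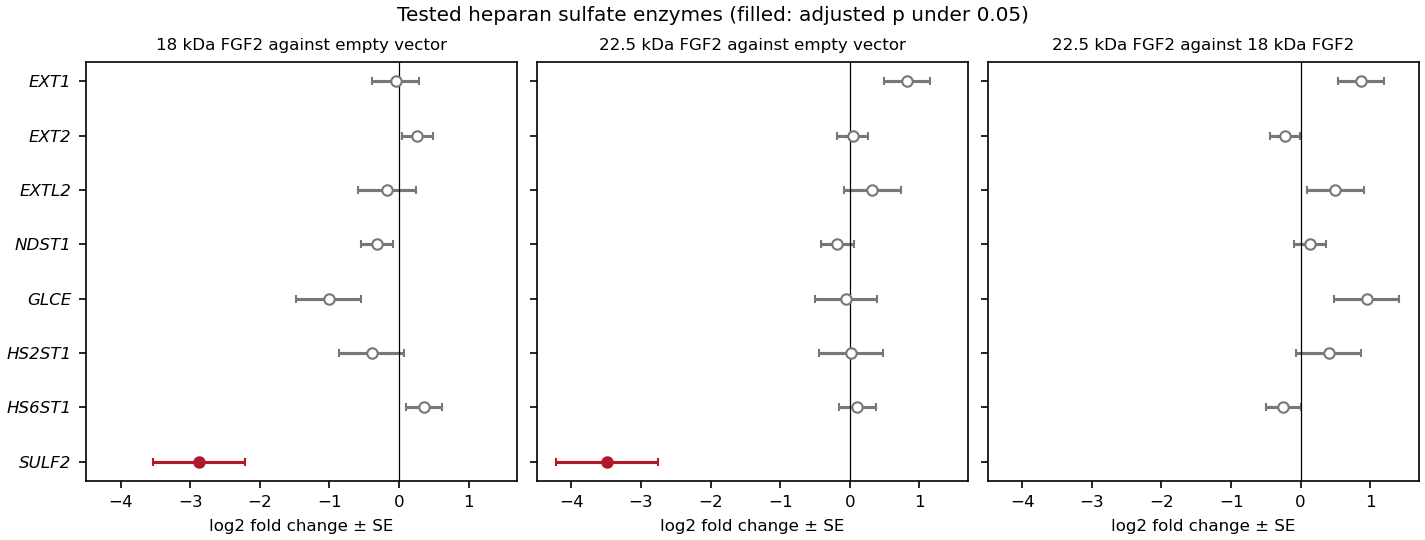
Log2 fold change (horizontal axis) ± SE of the 8 tested heparan sulfate enzyme genes in 3 comparisons; filled red points passed an adjusted p of 0.05. SULF2 is the only filled point, at -2.87 and -3.49 against the empty vector, and is not drawn between the isoforms, where it had 1 to 3 counts a library.

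Of the chain-building genes, none passed the test. EXT1, a polymerase subunit whose loss causes hereditary bone tumours, stood at 11.6 and 14.3 CPM in empty vector cells, 14.4 and 10.5 CPM in 18 kDa cells, and 22.3 and 23.5 CPM in 22.5 kDa cells. Both 22.5 kDa libraries lay above the other 4, and the 18 kDa and empty vector libraries overlapped. Against the empty vector its log2 fold change was 0.82 with 22.5 kDa FGF2 (SE 0.33, unadjusted 95% interval 0.14 to 1.5), and adjusted p was 0.123, with a range of 0.0626 to 0.584 over the alternatives. Against 18 kDa FGF2 the 22.5 kDa value was 0.87 (SE 0.33, adjusted p = 0.248). EXT2, its partner, stood at 154 and 174 CPM in empty vector cells, 231 and 164 CPM in 18 kDa cells, and 160.2 and 177 CPM in 22.5 kDa cells. All groups overlapped, and the largest difference, 0.27 on the log2 scale with 18 kDa FGF2 (SE 0.22, adjusted p = 0.551), came from 1 library. EXTL2, a related transferase that acts on the linkage region, ranged from 6.0 to 11.3 CPM over the 6 libraries with overlap in each comparison (adjusted p of at least 0.672).

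The genes of the modifying enzymes that act inside the Golgi did not pass either. NDST1, which swaps acetyl for sulfate on glucosamine and so opens the way to the later steps, stood at 257 and 221 CPM in empty vector cells, 239 and 147 CPM in 18 kDa cells, and 194 and 229 CPM in 22.5 kDa cells. With overlapping groups, NDST1 had log2 fold changes of -0.31 with 18 kDa FGF2 (SE 0.23, adjusted p = 0.507) and -0.18 with 22.5 kDa FGF2 (SE 0.23, adjusted p = 0.725). The unadjusted 95% intervals, -0.79 to 0.17 and -0.66 to 0.30, leave room for NDST1 changes of either sign within those bounds.

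GLCE, the epimerase that turns glucuronic into iduronic acid, stood at 10.9 and 8.63 CPM in empty vector cells, 2.76 and 7.03 CPM in 18 kDa cells, and 12.4 and 6.21 CPM in 22.5 kDa cells. Both 18 kDa libraries lay below both empty vector libraries, but the pair of libraries in each FGF2 group were far apart. The log2 fold change with 18 kDa FGF2 was -1.01 (SE 0.47, adjusted p = 0.226). Without 18 kDa replicate 2 it was -1.77 (adjusted p = 0.0279), so that 1 library decides the call, over a range of 0.0279 to 0.717. With 22.5 kDa FGF2 it was -0.06 (SE 0.45, adjusted p = 0.964).

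HS2ST1, the 2-O-sulfotransferase whose product FGF2 binds, stood at 22.9 and 13.7 CPM in empty vector cells, 8.90 and 19.1 CPM in 18 kDa cells, and 25.7 and 11 CPM in 22.5 kDa cells. The spread inside each group was as wide as the spread between groups. The intervals of its log2 fold change, -1.40 to 0.62 with 18 kDa and -0.99 to 1.02 with 22.5 kDa FGF2, leave room for changes of either sign.

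HS6ST1, a 6-O-sulfotransferase that adds the group SULF1 and SULF2 remove, stood at 29.7 and 28.7 CPM in empty vector cells, 40.4 and 34.4 CPM in 18 kDa cells, and 31.9 and 31.1 CPM in 22.5 kDa cells. Its 3 groups did not overlap and replicates lay close together, yet the log2 fold change was 0.36 with 18 kDa FGF2 (SE 0.26, adjusted p = 0.485) and 0.11 with 22.5 kDa FGF2 (SE 0.26, adjusted p = 0.867). On chromosome 2, the 24 nearest tested genes around HS6ST1 had median log2 fold changes of 0.45 and 0.42 in the same comparisons. The part of the region in the HS6ST1 values was not tested. Around SULF2, on chromosome 20, the same medians were -0.11 and -0.16. HS3ST1, which makes the rare 3-O-sulfate of the antithrombin-binding site, had 0 counts in every library, which allows up to 0.458 to 0.601 CPM (3 counts) depending on the library.

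GLCE and HS2ST1, whose libraries lay farthest apart within the FGF2 groups among the 7 better-covered members, have transcripts of low GC content. Transcripts of GLCE (39.1% GC), EXTL2 (40.0%) and HS2ST1 (41.5%) fall in the lowest quintile of tested genes, while NDST1 (61.8%) and HS6ST1 (62.6%) fall in the highest. In the lowest quintile, the median of replicate 1 minus replicate 2 over all genes was 0.30 in empty vector, -0.69 in 18 kDa and 0.55 in 22.5 kDa cells on the log2 scale. In the highest quintile it was -0.04, 0.12 and -0.32. GLCE differed by 0.33, -1.25 and 0.95 between the replicates of the same groups, and HS2ST1 by 0.73, -1.08 and 1.19, the same signs as their quintile. EXTL2, in the same quintile, differed by 0.43, -0.08 and 0.78. In the highest quintile NDST1 differed by 0.22, 0.70 and -0.24 and HS6ST1 by 0.05, 0.23 and 0.04, so NDST1 in empty vector cells and HS6ST1 in empty vector and 22.5 kDa cells had the opposite sign to their quintile. With the GC trend taken out of each library, GLCE was at -0.84 with 18 kDa FGF2 (adjusted p = 0.0943) and SULF2 at -2.84 and -3.39 (adjusted p = 0.00575 and 0.00335). EXT1 was then at 0.74 with 22.5 kDa FGF2 (adjusted p = 0.0812).

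**Figure D3:**
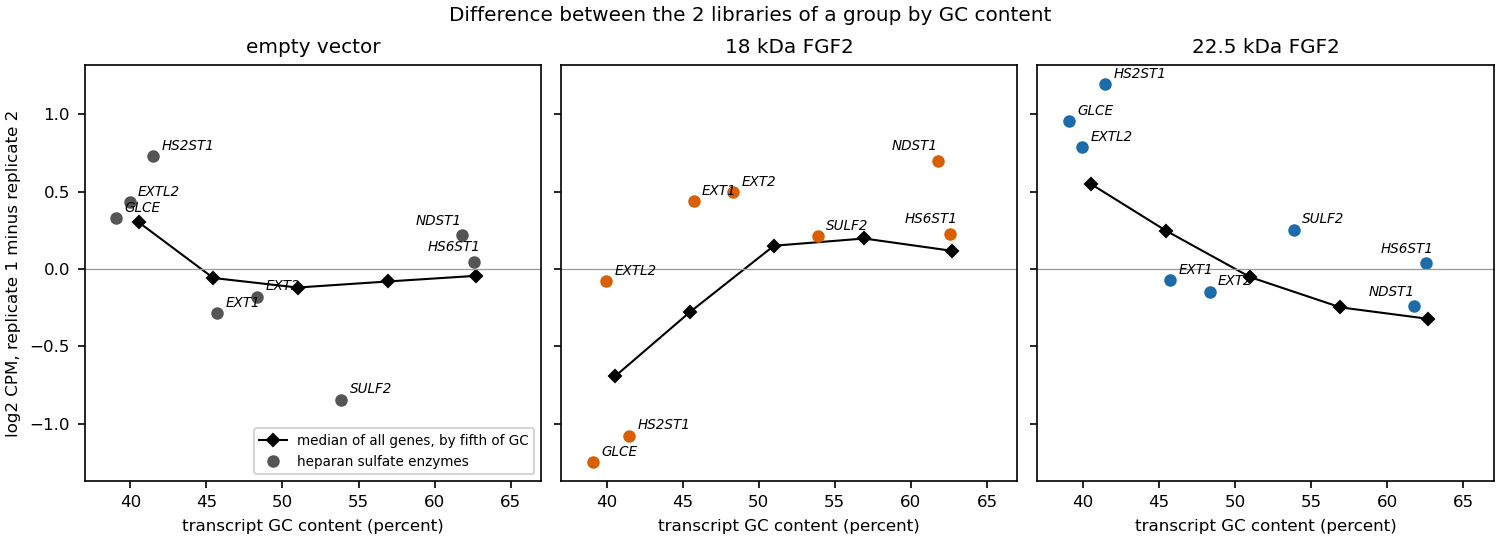
Difference between the 2 libraries of a group (log2 CPM, replicate 1 minus replicate 2, vertical axis) against transcript GC content in percent (horizontal axis); coloured points are the 8 tested heparan sulfate enzyme genes and black diamonds the median of all genes in each quintile of GC content. In the lowest quintile the median is 0.30 for empty vector, -0.69 for 18 kDa and 0.55 for 22.5 kDa cells, and GLCE and HS2ST1 lie on the same side of 0.

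The genes nearest in pattern to 3 members were found by the root mean square difference of centred log2 CPM over the 6 libraries. Genes picked in this way resemble the member in these libraries by choice, so their values and p-values are given as a description. Nearest to SULF2 were STARD8 (0.113) and SYT13, a synaptotagmin gene (0.189). STARD8 stood at 5.19 and 9.38 CPM in empty vector cells, 1.07 and 1.05 CPM in 18 kDa cells, and 1.07 and 0.802 CPM in 22.5 kDa cells and was, like SULF2, lower in empty vector replicate 1 than 2. Nearest to EXT1 were ATP5PO, a subunit of mitochondrial ATP synthase (0.0599), and BZW2 (0.0762), and both passed with 22.5 kDa FGF2 at log2 fold changes of 0.76 (adjusted p = 0.0215 and 0.0208). Their calls were lost when any empty vector or 22.5 kDa library was left out, over ranges of 0.00684 to 0.331 for ATP5PO and 0.00756 to 0.404 for BZW2. Nearest to GLCE were LMAN1, a cargo receptor of the early secretory pathway (0.0634), and the zinc finger gene ZNF770 (0.0676), which like GLCE had a low 18 kDa replicate 1.

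The rest of the pathway was read from lists of genes by step. Of the 7 genes that start the chain by building the linkage tetrasaccharide, 6 were tested and 0 passed with either isoform (0 and 1 at an unadjusted p under 0.05, 0 with DESeq2). XYLT2, which adds the first xylose, was at -0.19 (SE 0.22) and -0.44 (SE 0.22) on the log2 scale, and B3GAT3, which adds the last glucuronic acid, at -0.10 (SE 0.22) and -0.25 (SE 0.22). All 8 genes that supply sulfate donor and sugar nucleotides were tested, and 0 passed against the empty vector (1 and 1 at an unadjusted p under 0.05, 0 with DESeq2). Among them SLC35B2, the Golgi carrier of the sulfate donor, was at 0.16 (SE 0.23) and 0.06 (SE 0.23), and PAPSS1, which makes the donor, at -0.42 (SE 0.23) and 0.14 (SE 0.23). The sulfate transporter SLC26A2, picked after its values were seen, was higher with 22.5 kDa than with 18 kDa FGF2 (log2 fold change 2.05, SE 0.51, adjusted p = 0.0419), at 13.7 and 4.41 CPM against 2.15 and 2.28 CPM. That call rested on 22.5 kDa replicate 1: without it the value was 0.96 (adjusted p = 0.791), and it was also lost with DESeq2 (0.122), with the GC trend removed (0.0607) and without 18 kDa replicate 1 (0.136) or 22.5 kDa replicate 2 (0.0532), over a range of 0.00166 to 0.791.

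Of 13 further polymerase and sulfotransferase genes, 4 had no read and 5 were tested. None passed with 18 kDa FGF2 (3 at an unadjusted p under 0.05, 0 with DESeq2), and 1 passed with 22.5 kDa FGF2 (1 with DESeq2), beside 10.9% of all tested genes. NDST4, a relative of NDST1, stood at 4.65 and 5.82 CPM in empty vector cells, 7.21 and 13.2 CPM in 18 kDa cells, and 13.1 and 14.2 CPM in 22.5 kDa cells. All 4 FGF2 libraries lay above the empty vector libraries. With 22.5 kDa FGF2 it rose, at a log2 fold change of 1.38 (SE 0.41, adjusted p = 0.0268), a call lost without either empty vector library (adjusted p = 0.254 and 0.0987 without replicates 1 and 2) or either 22.5 kDa library (0.101 and 0.148). With 18 kDa FGF2 it was at 0.96 (SE 0.41, adjusted p = 0.175).

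Of 13 core proteins that carry the chains, 10 were tested. With 18 kDa FGF2, 1 rose and 2 fell, beside 8.88% of all tested genes called, and with 22.5 kDa FGF2, 0 rose and 4 fell, beside 10.9%. DESeq2 gave 1 and 2 with 18 kDa FGF2, and 0 and 3 with 22.5 kDa FGF2. SDC2 and GPC2 met the minimum for testing only through the empty vector group, so their p-values too are descriptions. As genes of that kind had to be lower with FGF2, the counts of calls are no evidence about the core proteins as a group. SDC2, a syndecan, had 72 and 65 counts in empty vector cells against 4 and 7 in 18 kDa and 4 and 1 in 22.5 kDa cells, 13.9-fold lower by counts (95% interval 7.54 to 28.5, adjusted p = 1.73e-05) and 28.9-fold lower (12.1 to 90.6, adjusted p = 2.47e-06). GPC4, a glypican, stood at 13.8 and 14.8 CPM in empty vector cells, 3.38 and 1.76 CPM in 18 kDa and 5.19 and 5.61 CPM in 22.5 kDa cells, and it fell by 2.45 (SE 0.43, adjusted p = 0.000391) and 1.40 (SE 0.41, adjusted p = 0.0239). The second of these calls was lost with DESeq2 (adjusted p = 0.0595) and on leaving out either empty vector library (0.0989 for replicate 1, 0.133 for replicate 2) or either 22.5 kDa library (0.155 and 0.145), over a range of 0.00696 to 0.155. SDC4, another syndecan, fell by 0.83 with 22.5 kDa FGF2 (SE 0.23, adjusted p = 0.0164), lost on leaving out either empty vector library (0.0961 for replicate 1, 0.165 for replicate 2) or either 22.5 kDa library (0.086 and 0.103), over a range of 0.00438 to 0.165. With 18 kDa FGF2 SDC4 was at -0.56 (SE 0.23, adjusted p = 0.144). The fourth, GPC2, named after its values were seen, had 12 and 10 counts in empty vector cells and 12 and 2 in 18 kDa cells, a ratio of 1.76 (0.859 to 3.71, adjusted p = 0.517). Over 22.5 kDa cells it summed to 3 counts against 22 over empty vector cells, a ratio of 7.75 (2.33 to 40.4, adjusted p = 0.0242). That call was lost in 5 of 11 alternatives, DESeq2 (0.217) and the removal of any empty vector or 22.5 kDa library (0.0509 to 0.222), over a range of 0.00655 to 0.222. The gene that rose with 18 kDa FGF2 was SDC1, the main epithelial syndecan, at a log2 fold change of 1.56 (SE 0.24, adjusted p = 6.29e-05). With 22.5 kDa FGF2 it was at 0.56 (SE 0.23, adjusted p = 0.133). SDC1 was lower with 22.5 kDa than with 18 kDa FGF2 (log2 fold change -1.0, SE 0.23, adjusted p = 0.0214). That call was lost without 18 kDa replicate 1 (0.204) and on leaving out either 22.5 kDa library (0.259 for replicate 1, 0.0912 for replicate 2), over a range of 0.000994 to 0.259.

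Of 9 tested genes for chain breakdown, 1 passed in each comparison with the empty vector, near the 8.88% and 10.9% of all tested genes, and 0 with DESeq2. That gene was HPSE, which encodes heparanase. HPSE cuts heparan sulfate outside the cell, where SULF1 and SULF2 also act. It stood at 6.79 and 6.75 CPM in empty vector cells, 0.921 and 2.99 CPM in 18 kDa cells, and 2.29 and 2.00 CPM in 22.5 kDa cells, all 4 FGF2 libraries below both empty vector libraries. On the log2 scale it fell by 1.81 with 18 kDa (SE 0.50, adjusted p = 0.0207) and by 1.64 with 22.5 kDa FGF2 (SE 0.49, adjusted p = 0.0307). The calls were lost in 6 and 5 of 12 alternatives (adjusted p 0.00342 to 0.253 and 0.00889 to 0.212), among them DESeq2 (0.129 and 0.162). Left out in turn, both empty vector libraries, 18 kDa replicate 1 and 22.5 kDa replicate 2 ended the 18 kDa call, and both empty vector and both 22.5 kDa libraries the 22.5 kDa call.

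**Figure D4:**
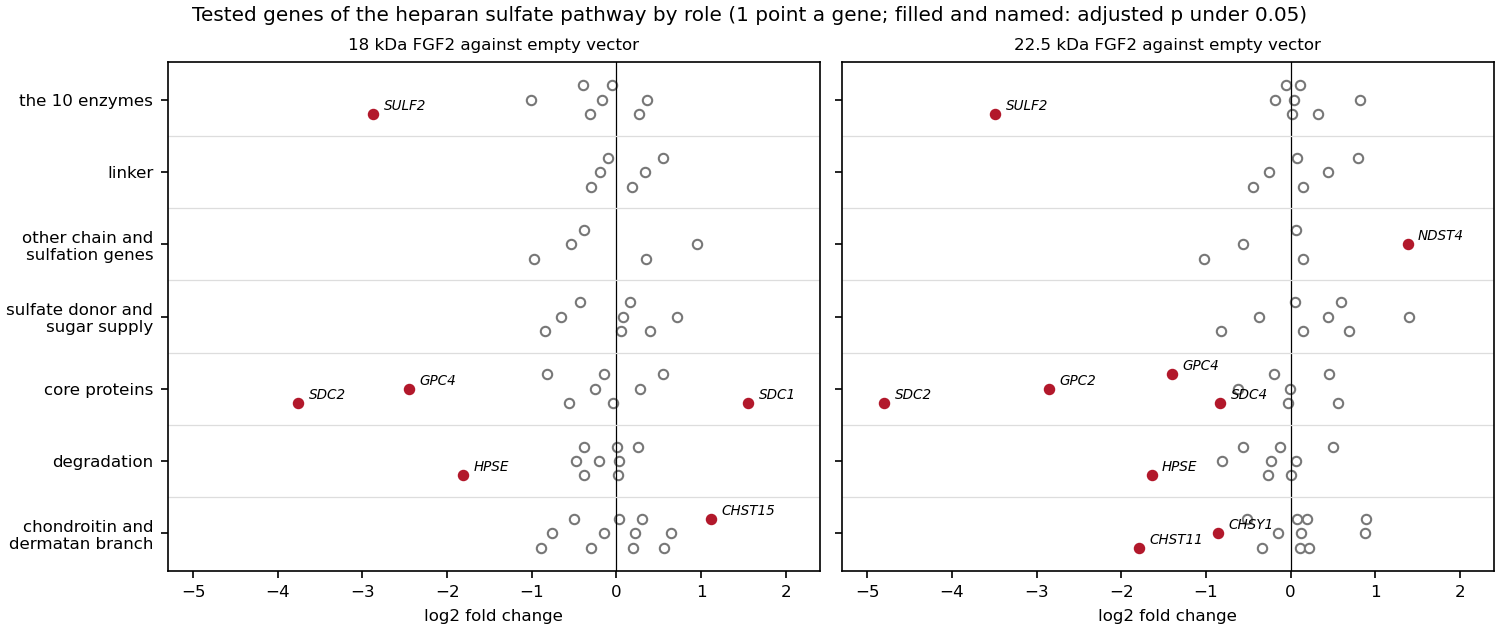
Log2 fold change against the empty vector (horizontal axis) of the tested genes of the heparan sulfate pathway, 1 point a gene, in rows by role; filled and named points passed an adjusted p of 0.05. The linker and supply rows hold no filled point, while SULF2, HPSE, SDC2 and GPC4 are filled below 0 in both panels.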

How the data were processed

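The deposited table holds whole-number counts of reads per Entrez gene, with no normalization by the authors. Per the labels' protocols, TriReagent RNA with an integrity number over 5 went into directional, paired-end TruSeq libraries. Per the submitters' processing notes they used edgeR and the hg19 build. Aligner, counter and counting strand were not given in the sources used here. No exon of another gene overlapped a member. Of 23459 genes, 5136 had no read, and 23308 Entrez IDs matched a symbol in RefSeq (GRCh38.p14, used for names, neighbours and promoters only). GC content and exon length came from GENCODE transcripts (98.3% of tested genes had a GC value).

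The quasi-likelihood model of edgeR 4.0.16 (R 4.3.3) was fitted robustly, after filterByExpr by group and TMM scaling, as 1 model of 6 libraries with 3 residual degrees of freedom. The low-count filter kept 13124 genes. Tests were two-sided and passed at an adjusted p under 0.05. Replicates differed by more than counting noise (chi-square per degree of freedom 6.20, 14.3 and 14.3 in the empty vector, 18 kDa and 22.5 kDa groups). Intervals of count ratios are exact binomial 95% intervals and, like the floor of 3 counts, cover counting error only. The test was also run on simulated counts. Changes were planted there only in genes of a higher mean level than SULF2, so that run does not cover the SULF2 calls.

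DESeq2 1.42.0, RLE factors, no filter, only the 2 groups compared, a replicate block and leaving out each library were alternatives. Removal of the GC trend and a crossed block were chosen after seeing the data. The members and lists were chosen with earlier results of these data known. All 10 members are named. Of each other list, up to 4 genes that passed are named by smallest p, or the 2 with the highest level per length where none passed. The 3 members with the smallest p got their 2 nearest patterns. No library was left out of the main fit.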

Additional observations from a re-analysis of the deposited data

How the results depend on the processing

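With 1165, 1431 and 207 genes passing for 18 kDa against empty vector, 22.5 kDa against empty vector and 22.5 kDa against 18 kDa FGF2, leaving out 1 library in turn gave 617 to 1440, 630 to 1964 and 37 to 733. Removing the GC trend, chosen after seeing the data, gave 1911, 2366 and 323, and with no low-count filter the third count was 445. Of the 10 enzymes, where 1, 1 and 0 passed, 2 passed without the filter (SULF1 and SULF2) and 0 with DESeq2 in both comparisons with the empty vector, and leaving out 1 library gave 0 to 2 in each. Between the isoforms 0 passed in every alternative. The share of calls that were higher went from 46.1% to 35.2% and 35.3% without empty vector replicate 1 and 2 for 18 kDa FGF2, and from 46.1% to 56.1% both with the GC trend removed and without 22.5 kDa replicate 1 for 22.5 kDa FGF2.

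Deviations of same-numbered libraries correlated with mixed signs, at -0.271 (empty vector and 18 kDa), 0.387 (empty vector and 22.5 kDa) and -0.413 (18 and 22.5 kDa). These values do not settle whether the replicate numbers pair the samples. With the replicate block 1210, 1523 and 337 genes passed, and 1, 1 and 0 of the enzymes. With the 18 kDa numbers crossed, a choice made after these data were seen, 2434, 2910 and 1208 genes passed. Because the same data led to that block, these counts are no evidence that it pairs the samples. Over the values of the members and their alternatives, 279 stayed on their side of the threshold, 7 lost a call (SULF2 in each case), 1 gained one (GLCE) and 0 called values changed sign. With 1 to 22 reads of SULF2 a library, the depth sets the width of its intervals, and for HS3ST1 and SULF1 a change was not detectable or could hardly be measured. When an arm is left with 1 library, it is assumed to vary like the other groups. Where a call was lost the cause was not tested.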

Other observations

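Chondroitin and dermatan sulfate are built on the same linkage tetrasaccharide as heparan sulfate and can replace it on the same core proteins. Of 15 genes of that branch, 12 were tested. With 18 kDa FGF2, 1 rose and 0 fell, near the 8.88% of all tested genes called, and with 22.5 kDa FGF2, 0 rose and 2 fell, beside 10.9% of all tested genes. DESeq2 gave 1 and 0 with 18 kDa, and 0 and 1 with 22.5 kDa FGF2. CHST11, which adds 4-O-sulfate to chondroitin, stood at 39.5 and 34.9 CPM in the empty vector, 22.1 and 17.9 CPM with 18 kDa FGF2, and 10.2 and 11.2 CPM with 22.5 kDa FGF2. The 3 groups did not overlap. It fell by 1.79 on the log2 scale with 22.5 kDa FGF2 (SE 0.31, adjusted p = 0.000234), which held in 12 of 12 alternatives, and was at -0.89 with 18 kDa FGF2 (SE 0.29, adjusted p = 0.0588).

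CHST15, which adds a further sulfate to chondroitin, stood at 11.6 and 14.6 CPM in the empty vector, 35.5 and 21.3 CPM with 18 kDa FGF2, and 23.7 and 25.1 CPM with 22.5 kDa FGF2. With 22.5 kDa FGF2 its log2 fold change was 0.89 (SE 0.32, adjusted p = 0.0799), and between the isoforms -0.22 (SE 0.31, adjusted p = 0.828). It rose by 1.11 with 18 kDa FGF2 (SE 0.32, adjusted p = 0.0284), lost with only the 2 groups compared (0.0665) and on leaving out either empty vector library (0.324 for replicate 1, 0.0916 for replicate 2), the first 18 kDa library (0.293) or the second 22.5 kDa library (0.0627), over a range of 0.00195 to 0.324. CHSY1, a chondroitin polymerase, fell by 0.86 with 22.5 kDa FGF2 (SE 0.27, adjusted p = 0.0401). That call was lost with DESeq2 (0.0517) and on leaving out either empty vector library or either 22.5 kDa library. With 18 kDa FGF2 CHSY1 was at -0.76 (SE 0.27, adjusted p = 0.0837), and between the isoforms at -0.10 (SE 0.27, adjusted p = 0.922).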
